A study of Mus musculus with 2 samples.

Results

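The miR-99, miR-100 and miR-125 families were followed in unwounded mouse skin and unwounded mouse oral mucosa through 7 mature microRNAs, mmu-miR-99a-5p, mmu-miR-99b-5p, mmu-miR-100-5p, mmu-miR-125a-5p, mmu-miR-125b-5p, mmu-miR-125a-3p and mmu-miR-99b-3p, given below without the species prefix. They were taken by name from the 1892 mature mouse microRNAs probed on the array, and each was printed on 2 repeat spots. The study asked how oral mucosa, which closes wounds faster than skin, differs from skin in its microRNAs. Skin and oral mucosa were each measured on 1 single-colour (Cy5) array with 2 µg of total RNA pooled from 3 animals. No agent or genetic change is given for either group, and the mice described in the methods of the study were female Balb/c animals 8 to 10 weeks old. The sources name the samples both as tissue and as epithelium, so the layers that they held are not known. Since each tissue had 1 array, no test between tissues was possible, and every SD given is that of the 2 repeat spots, which is technical error within an array.

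MicroRNAs are short RNAs that guide silencing complexes to messenger RNAs, mainly by pairing through the seed, which is bases 2 to 8 of the mature strand. A precursor hairpin gives a 5p and a 3p strand, of which 1 is usually kept and the other degraded. The miR-99 and miR-100 microRNAs share a seed and are known to repress mTOR and the IGF1 receptor, and in skin they have been studied in wounded epidermis. The miR-125 microRNAs are the mammalian relatives of lin-4 of the nematode and are known in skin for holding epidermal stem cells back from differentiation. Both families lie together with let-7 genes in clusters that are conserved among animals.

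The mature sequences are shown because the 2 families are defined by their seeds, which are in capitals, and because probes for neighbours this close could share signal. The sequences are those the array names as targets, and for 7 of the 7 members they equal the RefSeq entries (GRCm38.p6).
miR-99a-5p: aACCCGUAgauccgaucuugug
miR-99b-5p: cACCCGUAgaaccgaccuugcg
miR-100-5p: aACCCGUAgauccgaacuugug
miR-125a-5p: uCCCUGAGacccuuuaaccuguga
miR-125b-5p: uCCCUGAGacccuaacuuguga
miR-125a-3p: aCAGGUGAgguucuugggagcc
miR-99b-3p: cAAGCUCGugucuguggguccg

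The seed ACCCGUA was carried by 3 microRNAs on the array, miR-99a-5p, miR-99b-5p and miR-100-5p. Counted from the 5′ end, miR-99a-5p and miR-100-5p differ by 1 substitution, U16A, and share their first 15 bases. miR-99b-5p differs from miR-99a-5p at 4 positions, A1C, U11A, U16C and U21C, all outside the seed. The seed CCCUGAG was carried by 5 microRNAs on the array, miR-125a-5p, miR-125b-5p, miR-351-5p, miR-6367 and miR-6394. miR-125a-5p has 24 bases and miR-125b-5p has 22, and they share the first 13. How far the probe of one member takes up RNA of another was not tested.

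The genes lie on the + strand in 3 clusters, each holding a miR-99 or miR-100 gene, a let-7 gene and a miR-125 gene (RefSeq, GRCm38.p6). On chromosome 16, Mir99a gives miR-99a-5p at chr16:77598940-77598961, followed by Mirlet7c-1 and by Mir125b-2 with miR-125b-5p at chr16:77646279-77646300. On chromosome 9, Mir100 gives miR-100-5p at chr9:41531437-41531458, followed by Mirlet7a-2 and by Mir125b-1 with miR-125b-5p at chr9:41581940-41581961, all within the span of the noncoding gene Mir100hg. On chromosome 17, Mir99b gives miR-99b-5p at chr17:17830194-17830215 and miR-99b-3p at chr17:17830232-17830253. It is followed by Mirlet7e and by Mir125a, with miR-125a-5p at chr17:17830817-17830840 and miR-125a-3p at chr17:17830855-17830876. That cluster lies within the span of the protein-coding gene Spaca6. From the first mature strand to the last, the clusters cover 47400 bp on chromosome 16, 50565 bp on chromosome 9 and 683 bp on chromosome 17. The 2 genes of miR-125b give the same 5p strand, so its signal cannot be assigned to either cluster.

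Signals are the median brightness of a spot in scanner units, with no background taken off. The 16 empty spots averaged 36.4 ± 7.84 for skin and 51.9 ± 6.65 for oral mucosa (SD over the empty spots). A microRNA was called detected where the mean of its spots was over the mean of the empty spots by more than 3 SD, which put the limit at 59.9 for skin against 71.8 for oral mucosa. The 5 members of the 5p arm were detected on both arrays. The 2 of the 3p arm were detected on the oral mucosa array only. Differences between tissues are oral mucosa minus skin after Variance Stabilizing Normalization (VSN), on its log2 scale, which removed an offset of 37.9 from the skin array and 46.3 from the oral mucosa array and scaled the oral mucosa array down by 1.37. A signal that reads the same on both arrays therefore lies lower in oral mucosa after VSN. In pooled tissue, fewer cells of a type and less RNA per cell cannot be told apart.

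By the size rule, a difference of at least 1 (2-fold) among microRNAs detected on at least 1 array, 1 of the 7 members passed, against 28.5% of all 562 microRNAs that passed the filter. That member was higher in oral mucosa, as were 13.7% of all. It was miR-99b-3p, which passed the filter through oral mucosa alone. Of the 7 members, 0 were higher in skin by the rule, against 14.8% of all. miR-125a-5p entered that count as a mean with a dim edge spot, and without the edge spots it passed the rule in skin. After VSN the repeat spots of the tissues did not overlap for 4 members. In miR-99a-5p and miR-99b-3p the oral mucosa spots lay above the skin spots, which held for 37.9% of all microRNAs. In miR-99b-5p and miR-100-5p the skin spots lay above, which held for 32.9% of all. The spots of the 3 miR-125 members overlapped, and each of those members had 1 dim spot at the edge of the skin array.

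miR-99a-5p was the brighter in oral mucosa. Its spots read 1418 and 1265 on the skin array, against 2412 and 2135 on the oral mucosa array. Every oral mucosa spot lay above every skin spot, before and after normalization. The means were 1341 ± 108 in skin and 2274 ± 196 in oral mucosa, and after VSN the difference was 0.32 ± 0.17, or 1.25-fold. It stayed above 0 in 12 of 12 other ways of processing, between 0.30 and 0.76.

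miR-99b-5p, which has the same seed and lies in the same cluster as miR-125a, went the other way. Its spots read 348 and 330 on the skin array, against 338 and 286 on the oral mucosa array. The scanner signals thus overlapped, and only after VSN did both skin spots lie above both oral mucosa spots. The difference was -0.64 ± 0.21, or 1.56-fold higher in skin, below the size rule. It was below 0 in 12 of 12 other ways of processing, nearest to 0 without normalization (-0.12).

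miR-100-5p, which differs from miR-99a-5p by 1 base, read 301 and 243 on the skin array, against 277 and 312 on the oral mucosa array. The scanner signals overlapped here too, and the oral mucosa spots fell below the skin spots only after VSN. The difference of the means was -0.37 ± 0.30. The spot in column 1, the array's outermost column, gave -0.65 and the other spot -0.08, and without normalization the difference turned to 0.11.

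The 3 microRNAs of 1 seed thus did not share a direction after VSN. The difference of miR-99a-5p was higher than that of miR-99b-5p by 0.95 ± 0.27 and higher than that of miR-100-5p by 0.69 ± 0.34, on the VSN log2 scale. Between miR-99b-5p and miR-100-5p the gap in difference was -0.26 ± 0.36, within the spread of the spots. Without the column 1 spots miR-99a-5p stood at 0.32, miR-99b-5p at -0.63 and miR-100-5p at -0.08. The gap between miR-99b-5p and miR-100-5p was then wider, and that between miR-99a-5p and miR-100-5p narrower.

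**Figure D1:**
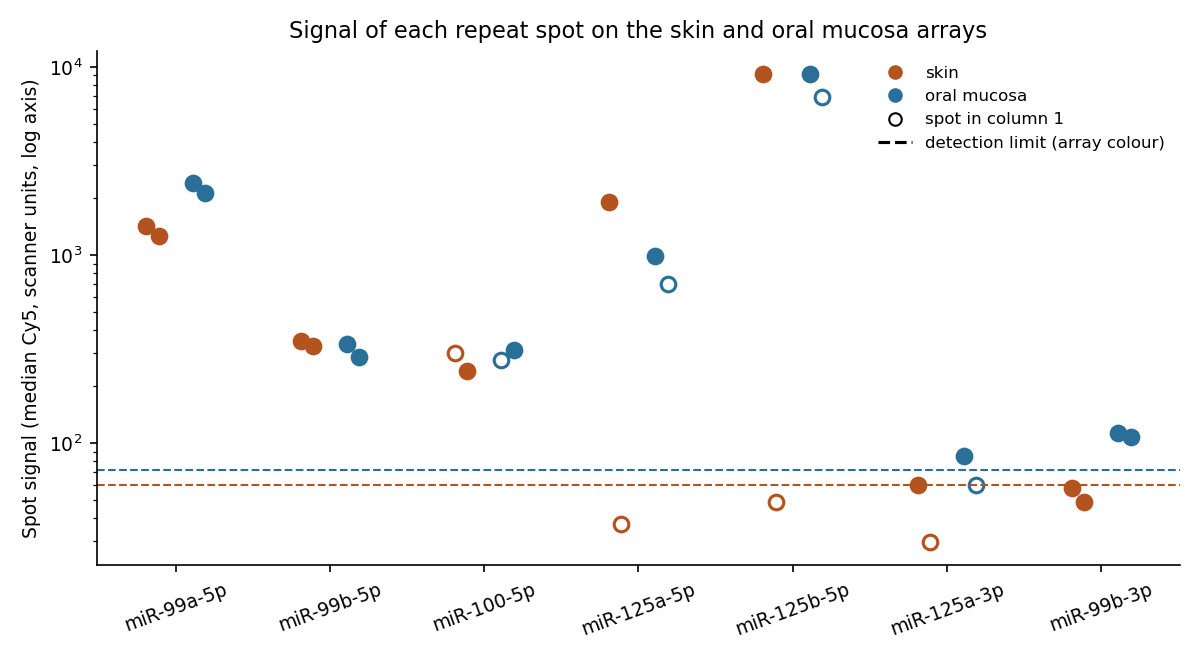
Median Cy5 signal of every repeat spot of the 7 members in scanner units on a log axis, with skin in orange, oral mucosa in blue, open circles for spots in column 1 and dashed lines for the detection limits (59.9 for skin, 71.8 for oral mucosa). The column 1 spots of miR-125a-5p (37.0) and miR-125b-5p (48.5) lie below the limit on the skin array while their repeats read 1907 and 9137.

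miR-125a-5p read 1907 at its inner spot (row 7, column 17) on the skin array, against 992 at the same place on the oral mucosa array. At the edge (row 114, column 1) it read 37.0 on the skin array, against 701 on the oral mucosa array. The inner spot was brighter in skin and the edge spot in oral mucosa, where the skin value was as low as that of an empty spot. After VSN the inner spot was 2.71-fold higher in skin, a difference of -1.44, while the edge spot differed by 8.33 in the opposite direction. The mean over both spots gave -0.68 with an SD of 7.29, so the mean of miR-125a-5p has no readable direction.

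miR-125b-5p was spotted 3 rows further along in both of these columns. Its inner spot (row 10, column 17) read 9137 on the skin array, against 9149 on the oral mucosa array, with an SD within the spot of 251 and 388. Its edge spot (row 117, column 1) read 48.5 and 6876. The inner spots were alike in scanner units, and after VSN the inner spot was 1.37-fold higher in skin, a difference of -0.46. The edge spot gave 8.83, against a skin reading below the detection limit. The mean of both was 0.35 with an SD of 6.87, so the mean of miR-125b-5p has no readable direction either.

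The low edge readings on the skin array were shared by the spots around these probes. In column 1 the 10 spots of rows 111 to 120, those within 3 rows of these spots, read 27.9 to 48.5 on the skin array, against 36.3 to 6876 on the oral mucosa array. The 7 of them that carry no member read 27.9 to 30.7 on the skin array, below the mean of the empty spots. In column 2 the same rows read 27.2 to 32.7 on the skin array, whereas in column 3 they reached 3092. Of the 30 microRNAs with a column 1 spot and a detected repeat on the skin array, 3 were more than 4-fold dimmer at the edge, miR-125a-5p, miR-125b-5p and miR-1264-3p, the last named here after its values were seen. All 3 lay in rows 111 to 120, which for miR-125a-5p and miR-125b-5p follows from how these rows were chosen. In the other 27 the log2 ratio of edge to repeat ran from -0.97 to 0.70. On the oral mucosa array 0 of 31 were that much dimmer, but there too the edge was lower in rows 111 to 120, where the 4 microRNAs with a detected repeat had log2 ratios of -0.68 to -0.41, below the -0.32 to 0.32 of the other 27. The column 1 spot of miR-100-5p, in row 34, was not dim.

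**Figure D2:**
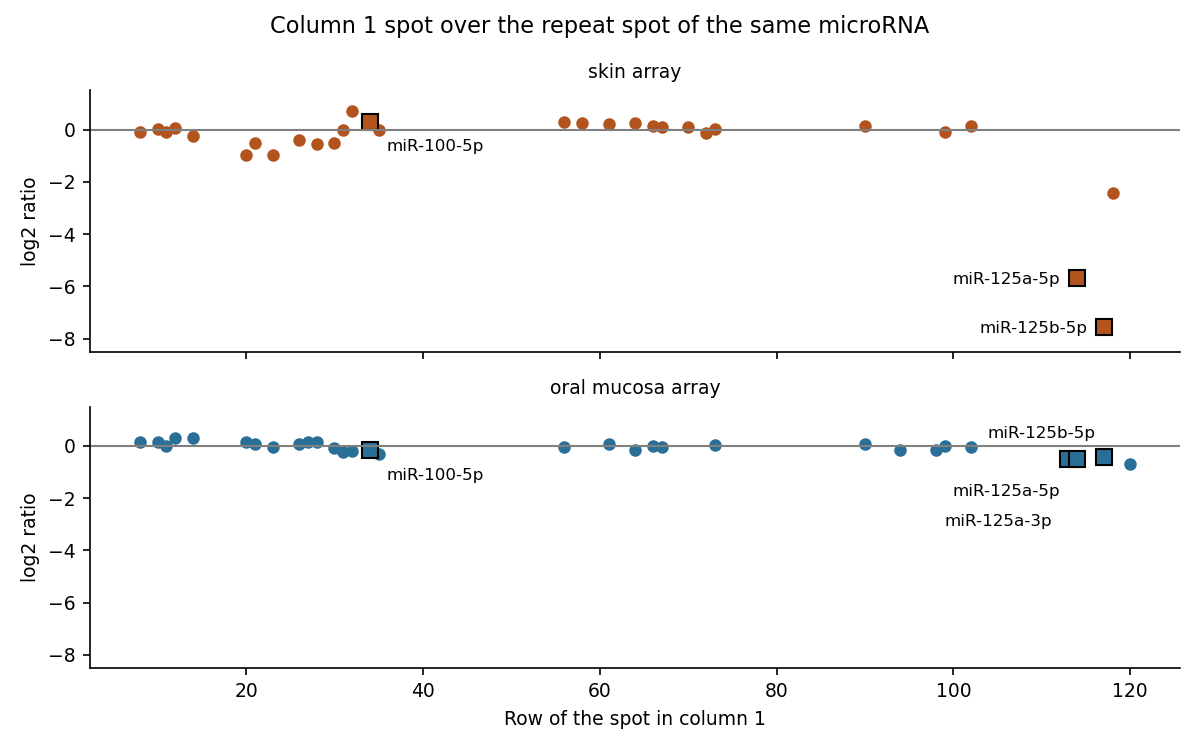
Log2 ratio of the column 1 spot to the repeat spot of the same microRNA, in scanner units, against the row of the column 1 spot, on the skin array (top) and the oral mucosa array (bottom), with members as squares. On the skin array miR-125a-5p (-5.69) and miR-125b-5p (-7.56) fall far below the others, and on the oral mucosa array the lowest ratio, in the same rows, is -0.68.

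Without the spots in column 1 on either array, miR-125a-5p passed the size rule, at 2.70-fold higher in skin (-1.44), and miR-125b-5p stood at -0.45. Then 2 of 7 members passed, miR-99b-3p in oral mucosa and miR-125a-5p in skin, against 28.9% of 560 microRNAs in either direction, 14.1% in oral mucosa and 14.8% in skin. With 1 spot for each array left, these values of miR-125a-5p and miR-125b-5p have no SD. Leaving out column 1 was chosen with the dim spots already known. At the inner spots the difference of miR-125b-5p was higher than that of miR-125a-5p by 0.98. The values the authors processed were in the order of the inner spots after VSN. There miR-125a-5p had 1816 in skin and 668 in oral mucosa, and miR-125b-5p had 8661 and 7046. On the scale log2(value + 50) that was -1.38 and -0.30. The processed skin value over the mean scanner signal above the offset was 1.94 in miR-125a-5p and 1.90 in miR-125b-5p, while it was 1.14 to 1.20 in the other 5 members and 1.17 at the median of 380 detected microRNAs away from the edge. How the processed values treat a dim spot is not given in the sources used here.

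The 3p strands, the arms usually degraded, were dim. miR-99b-3p read 57.5 and 48.4 on the skin array, against 113 and 107 on the oral mucosa array. Both oral mucosa spots lay above the limit and both skin spots below it. Its mean was 110 ± 4.36 in oral mucosa and 52.9 ± 6.43 in skin, which was not detected. With skin counted at the lowest signal detected there, miR-99b-3p differed by 1.08 ± 0.10 on the VSN log2 scale, which takes the offset off both signals, and by 0.88 without normalization. That SD is of the oral mucosa spots alone, since skin entered at a fixed signal. miR-99b-3p lay above 0 in 11 of 11 other ways of processing but passed the size rule in 5 of them. With scaling of both arrays to the median it was 0.42. Since it passed the filter through oral mucosa alone, its constant sign is not read as support for a direction. Its 5p strand from the same hairpin differed by -0.64.

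miR-125a-3p read 59.7 (row 6, column 17) and 29.8 (row 113, column 1) on the skin array, against 85.4 and 59.6 on the oral mucosa array. Only its inner spot on the oral mucosa array stood above the limit there. The oral mucosa mean of 72.5 ± 18.3 was just over 71.8, and the skin mean of 44.7 ± 21.1 included a spot of the dim stretch. No fold is given, because the lowest signal detected in skin lies above its oral mucosa signal after VSN. Of the other arms of these hairpins, miR-99a-3p, miR-100-3p, miR-125b-1-3p and miR-125b-2-3p, 0 of 4 were detected on either array, with mean signals of 35.7 to 41.7 in skin and 43.0 to 52.7 in oral mucosa.

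The let-7 microRNAs of the 3 clusters, which restrain growth and promote differentiation, all lay below 0 after VSN on their 5p arms, with both skin spots above both oral mucosa spots. let-7e-5p, next to miR-99b and miR-125a, read 361 and 701 on the skin array, against 211 and 218 on the oral mucosa array. That was 4.03-fold higher in skin (-2.01 ± 0.73), and -2.40 without its column 1 spot, the lower of its skin spots. Over 12 other ways of processing it ran from -2.40 to -1.31, past the size rule in all 12. let-7a-5p averaged 9869 ± 121 in skin and 6555 ± 495 in oral mucosa, or 2.07-fold higher in skin (-1.05 ± 0.11). It ran from -1.11 to -0.59 and missed the size rule in 5 of the 12. let-7c-5p averaged 10666 ± 1203 in skin against 11265 ± 1682 in oral mucosa. Its difference was -0.38 ± 0.27 and ran from -0.65 to 0.08 over 12 other ways of processing. Their 3p arms were not detected on either array. let-7a-5p is also given by Mirlet7a-1 and let-7c-5p by Mirlet7c-2, outside these clusters. let-7a-5p differs from let-7e-5p and from let-7c-5p by 1 substitution each, and how far their probes share signal was not tested.

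By cluster and without the column 1 spots, the chromosome 17 cluster had its 3 5p arms below 0, with miR-99b-5p at -0.63, let-7e-5p at -2.40 and miR-125a-5p at -1.44. In the chromosome 9 cluster miR-100-5p stood at -0.08 and let-7a-5p at -1.11. In the chromosome 16 cluster miR-99a-5p stood at 0.32 and let-7c-5p at -0.65. miR-125b-5p, shared by the chromosome 9 and 16 clusters, was at -0.45. miR-99a-5p was the only 5p arm of the 3 clusters above 0 on these values, of which those resting on 1 spot have no SD. Before normalization the same spots gave log2 ratios of 0.36 for miR-100-5p and 0.002 for miR-125b-5p. The arms besides these and miR-99a-5p were below 0 there too. Under VSN, on the means of both spots, 281 of all 562 microRNAs lay below 0.

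**Figure D3:**
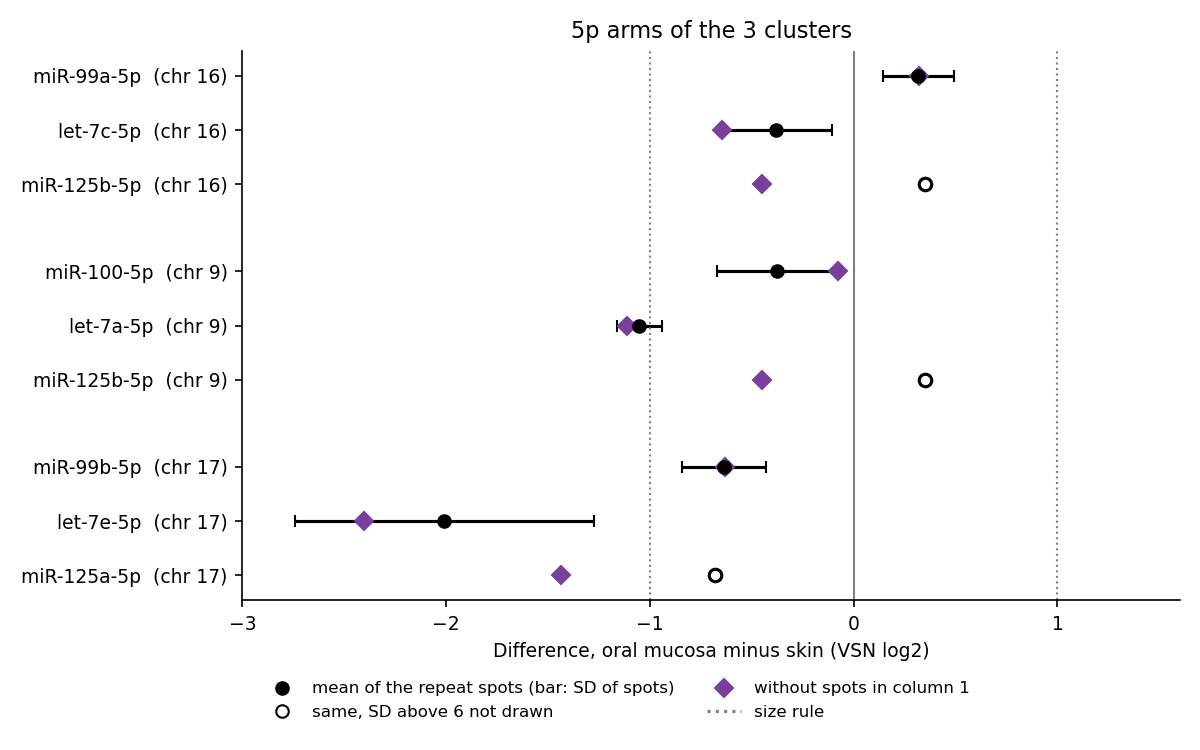
VSN log2 difference, oral mucosa minus skin, of the 5p arms of the 3 clusters, with black points for means of repeat spots, bars for their SD, open points where the SD is above 6 and is not drawn, diamonds for values without column 1 and dotted lines at the size rule of 1. miR-99a-5p lies above 0 (0.32) and let-7e-5p lies lowest (-2.01), while miR-125a-5p and miR-125b-5p move down when the column 1 spots are left out.

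Relatives in sequence of the miR-99 family were detected in skin only. miR-10a-5p and miR-10b-5p, which come from Hox gene clusters, differ from it in the seed. miR-10a-5p shares a run of 10 bases with miR-99a-5p and of 11 with miR-100-5p, and miR-10b-5p shares a run of 10 with miR-99b-5p.
miR-10a-5p: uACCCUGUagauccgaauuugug
miR-10b-5p: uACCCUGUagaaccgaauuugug
miR-10a-5p read 363 and 334 on the skin array, against 39.5 and 54.9 on the oral mucosa array. With oral mucosa counted at the lowest signal detected there, it was 16.5-fold higher in skin under VSN, which takes the offset off both signals, and 4.85-fold without normalization. miR-10b-5p read 1856 and 2054 on the skin array, against 46.8 and 69.2 on the oral mucosa array. Counted in the same way, it was 102-fold higher in skin under VSN and 27.2-fold without normalization. Both passed the size rule in skin in 11 of 11 other ways of processing, while the size of the fold depended on the normalization. Both were below the limit in oral mucosa, where the miR-99 family was detected. Of the microRNAs with the miR-125 seed, miR-351-5p and miR-6367 were not detected on either array, and miR-6394 averaged 64.3 in skin against 82.1 in oral mucosa, which differed by -0.02 ± 0.52 after VSN.

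The 5p members had a median difference of -0.37, and of -0.45 without the column 1 spots, and the 394 microRNAs detected on both arrays had a median of -0.06. The -0.37 is the value of miR-100-5p, and the ranking behind it includes the means of miR-125a-5p and miR-125b-5p, which have no readable direction. Of those 394, 290 (73.6%) differed by less than 1. On the means of both spots so did the 5 members, of which miR-125a-5p passed 1 in skin without the column 1 spots. The 3 other microRNAs nearest to the members' median, among 335 detected on both arrays and away from the edge, were miR-5132-5p (-0.37), miR-328-5p (-0.38) and miR-466d-3p (-0.37). The nearness is that of 1 difference between 2 arrays.

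**Figure D4:**
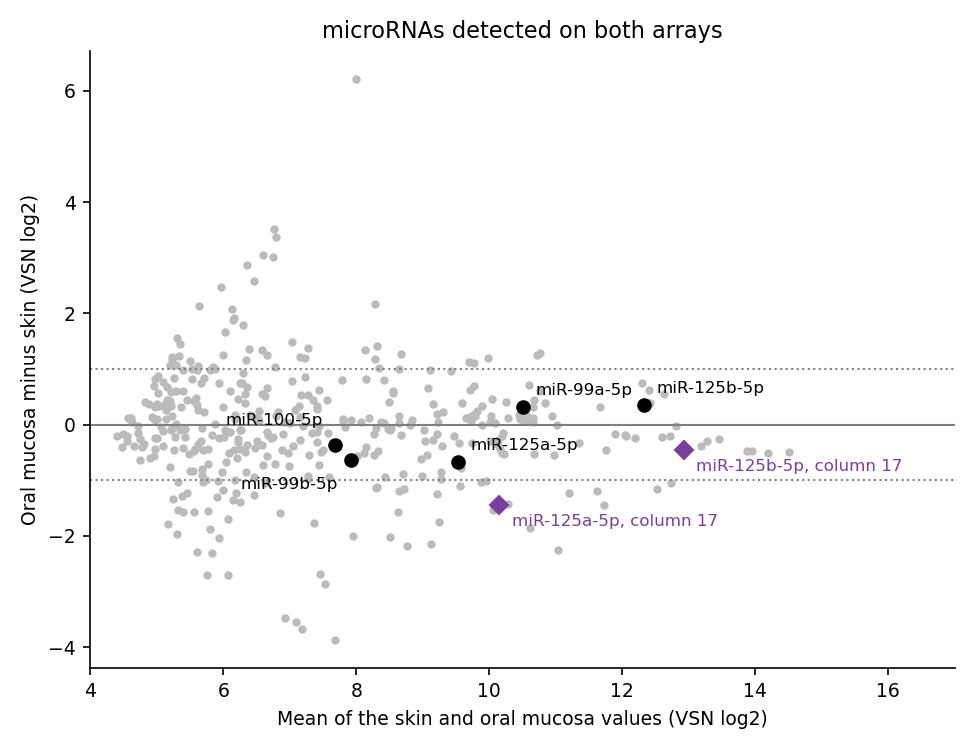
VSN log2 difference, oral mucosa minus skin, against the mean VSN log2 value of both arrays for the 394 microRNAs detected on both, with the 5p members in black, the column 17 spots of the miR-125 members as diamonds and dotted lines at the size rule. The 5 members lie between -0.68 (miR-125a-5p) and 0.35 (miR-125b-5p), means that each include a dim edge spot of the skin array. The column 17 spot of miR-125a-5p lies at -1.44.

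The tissues also differed in microRNAs that mark cell types. The 7 epithelial markers were detected on both arrays, led by miR-205-5p at 22415 in skin and 21673 in oral mucosa, and their signals above the offset, on the scale of the skin array, summed to 48960 in skin and 35300 in oral mucosa, a log2 ratio of -0.47. Members of that list went both ways by the size rule, with miR-200c-3p higher in skin (-1.22 ± 0.46) and miR-429-3p higher in oral mucosa (1.12 ± 0.89). miR-205-5p stood at -0.51 ± 0.59 and miR-203-3p at -0.48 ± 0.37. Under VSN the 5 fibroblast and smooth muscle markers all passed the size rule in oral mucosa, against 13.7% of all microRNAs. Of these, miR-143-3p passed the filter through oral mucosa alone, and miR-199a-5p stood at 1.01, or 0.51 with the processed values. In skin 4 were detected and in oral mucosa 5, with sums of 327 and 1194 above the offset, led by miR-214-3p at 184 and 948. Among 3 red blood cell markers only miR-451a was detected, at 67.3 in skin and 3056 in oral mucosa, while miR-144-3p and miR-144-5p were not detected on either array, and the sums were 29.4 and 2196. Of 2 endothelial markers, 0 were detected in skin and miR-126a-3p in oral mucosa, at 155, without miR-126a-5p, and the sums were 5.79 and 79.4. Both endothelial probes have a column 1 spot in or next to the dim rows of the skin array, and without column 1, an alternative chosen after seeing the data, the sums were 29.1 and 110. Of 4 leukocyte markers, 0 were detected in skin and miR-150-5p in oral mucosa, at 248, without miR-142-3p, miR-142-5p and miR-223-3p, with sums of 29.8 and 164. Of 4 skeletal muscle markers, miR-206-3p was detected in skin, at 146, and 3 in oral mucosa, led by miR-206-3p at 177 and without miR-1a-3p, with sums of 146 and 177. The part of these cell types in the values of miR-99a-5p, miR-99b-3p and the other members was not tested.

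Processing moved some members across 0 and left others. miR-99a-5p stayed above 0, and miR-99b-5p below it, under every alternative that gave a value. miR-99b-3p also stayed above 0, but it passed the filter through oral mucosa alone, so its sign is not read as support. miR-125a-5p was below 0 in 12 of 12, but 9 of these averaged the dim edge spot with the inner one and say nothing of its direction. It passed the size rule in skin in the other 3, without column 1, without columns 1 and 2 and with the processed values, whose treatment of the dim spot is not known. miR-100-5p was above 0 only without normalization. miR-125b-5p was above 0 in 9 of 12 alternatives. These 9 too averaged the dim edge spot with the inner one and say nothing of its direction. It was below 0 in the other 3, without column 1, without columns 1 and 2 and with the processed values of the authors. The values of miR-125a-3p in the plot rest on the lowest signal detected in skin, except with the processed values (0.23) and no detection filter (1.40). Those use its own skin signal, which was not detected, and none of its values is read for direction.

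**Figure D5:**
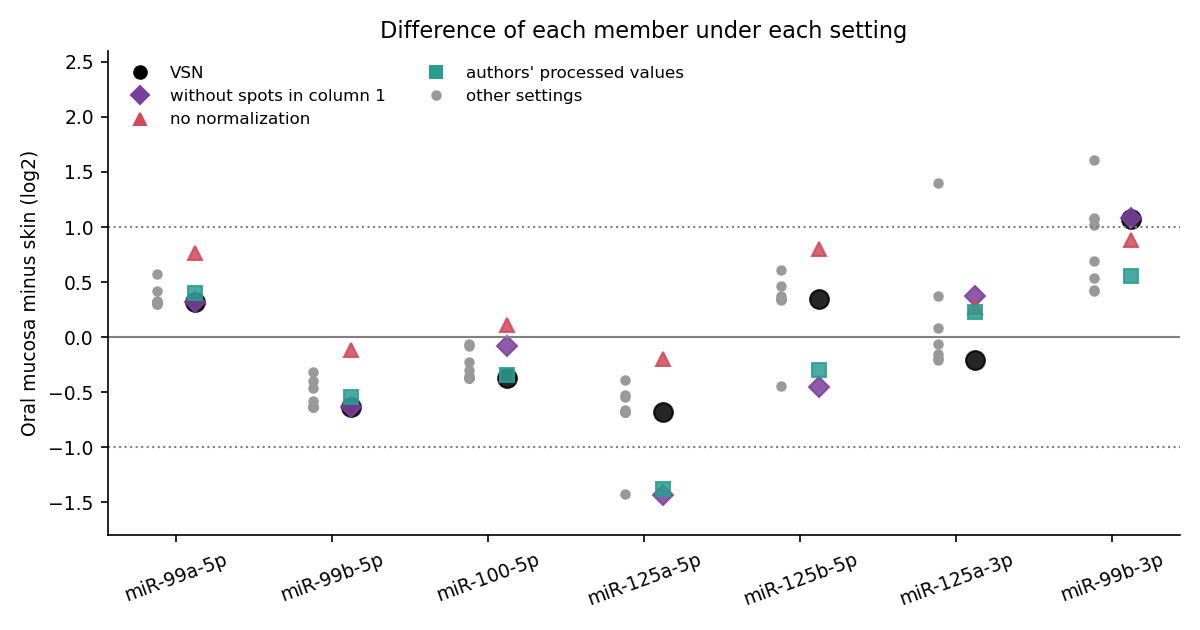
Difference of each member, oral mucosa minus skin on a log2 scale, after VSN (black), without column 1 (diamonds), without normalization (triangles), with the processed values of the authors (squares) and under the other alternatives (grey), with dotted lines at the size rule. miR-99b-5p stays below 0, between -0.64 and -0.12, and miR-125b-5p lies on both sides, between -0.45 and 0.80. The values of miR-125b-5p above 0 average its dim edge spot on the skin array with the inner one and are not read for direction.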

How the data were processed

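Total RNA was tailed, tagged and hybridised by a service provider to arrays of probes complementary to mature microRNAs. The authors deposited the median Cy5 intensity of each of 3968 spots per array (184 of them controls), with its SD within the spot, before background correction or normalization. They also deposited 1 processed intensity per microRNA, made by steps not given in the sources used here. Repeat spots were averaged and both arrays normalized together by VSN, the method the study names, written in Python 3.11.15 (numpy 2.4.6, scipy 1.17.1, pandas 2.3.3) and tested on simulated data. The number of arrays limits the precision. For a microRNA detected on 1 array, the other array counted at its lowest detected signal, or at the probe's own signal where that was higher.

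The text names the 7 members, the other arms and clustered let-7 microRNAs, those sharing a seed, miR-10a-5p, miR-10b-5p and miR-351-5p, the 3 nearest to the median of the 5p members, the spots beside the dim edge spots, and cell type markers. One red cell marker, miR-486a-5p, was not analysed here. Members, lists and rules were chosen with earlier results of these data known. Alternatives were 4 other normalizations (quantile, median, 75th percentile, none), VSN from 1 start, normexp (limma 3.58.1, R 4.3.3, offset 50), processed intensities, no edge columns, 3 detection filters and thresholds of 1.5-fold and 4-fold. Sequences and coordinates came from RefSeq (GRCm38.p6), and marker sums are of signals above the VSN offset, scaled as fitted.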

Additional observations from a re-analysis of the deposited data

How the results depend on the processing

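No paired analysis was possible because skin and oral mucosa had 1 array apiece, and for that reason no array could be left out. Under VSN, 160 microRNAs passed the size rule, and 1 member did. The count over all microRNAs was 80 under quantile normalization, 87 under median scaling, 85 with the 75th percentile, 102 with no normalization, 87 with the processed values and 85 with VSN from 1 start. It was 104 among microRNAs detected on both arrays, 577 with no detection filter, 256 at 1.5-fold and 46 at 4-fold. The member count was 0 under quantile, median, 75th percentile and no normalization, VSN from 1 start, detection on both arrays and 4-fold. It was 2 without column 1, without columns 1 and 2 and with no detection filter, and 3 at 1.5-fold. The count was 1 with the processed values too, but there it was miR-125a-5p and not miR-99b-3p. The median difference over the 7 members was -0.20, 0.28 with no normalization and 0.32 with no detection filter, but -0.20 and 0.28 are the values of miR-125a-3p, which rest on the lowest signal detected in skin, so no direction is read from this median. Other alternatives moved these results by less, and the causes were not tested. Of the calls over all microRNAs, 48.1% were higher in oral mucosa under VSN, 63.5% with the 75th percentile and 78.4% with no normalization, which moved the median difference of all microRNAs to 0.20 and 0.40. The 3p arms lie close to the empty spots, so that skin enters their differences at the lowest detected signal.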

Other observations

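A control spot in the same edge column as the miR-125 spots, at row 123, read 6237 with an SD within the spot of 5284 on the skin array, and 33350 with an SD of 310 on the oral mucosa array. Another control spot, at row 125 of that column, read 10304 with an SD of 730 on the skin array and 7987 with an SD of 192 on the oral mucosa array, brighter in skin. Over the whole skin array, 8 spots were more than 4-fold dimmer than a detected repeat, 6 of them in columns 1 and 2, and 2 of the 8 belonged to miR-125a-5p and miR-125b-5p. On the oral mucosa array there were 0 such spots.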
